A study of Paralichthys olivaceus with 6 samples.

Results

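The gene described here is ackr3, which encodes a scavenging chemokine receptor, together with cxcr4 and cxcl12, the signalling receptor and the ligand of the same axis. The genes were found by identifier in read counts from tissue labelled hindbrain of a flatfish, the olive flounder (Paralichthys olivaceus), and all 3 identifiers were present among 24395. The unnamed locus LOC109627676, which the RefSeq annotation of assembly ASM2471397v2 names cxcl12b, was added as a second ligand gene, so that 4 genes are described. The gene ackr3 was chosen because of its difference between the groups in these same libraries. Its group values are therefore a description with no test, while cxcr4, cxcl12 and cxcl12b were added for their place in the pathway.

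The libraries come from fish selected by behaviour, 3 libraries titled bold personality and 3 titled shy personality, from fish held at 18 °C with no other treatment in the labels. The personality characteristic of each library gives the opposite word to its title and source name, so libraries are named by title as titled bold or titled shy, and each direction below turns round if the characteristic is the right label. The labels name 6 individuals as the source of RNA and leave unsaid whether a library pools fish, so the p-values measure the spread between libraries only, which may be technical. Totals lay between 18081694 and 22805563 counts, where 3 counts equal between 0.132 and 0.166 CPM, counts per 1000000. Titled bold 2 had the lowest median correlation with the other libraries, 0.962 against 0.971 to 0.976 for the other 5. As a check of the labelled tissue, Hox genes, which mark hindbrain and spinal cord, had 10 to 29 reads per library summed over 41 genes, and 25 of these were without a read in all libraries. Hox genes were thus nearly absent, the label hindbrain is not borne out by them, and the tissue is named here only as labelled.

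CXCL12 is a secreted chemokine that guides migrating cells, and CXCR4 is the receptor that turns its binding into G protein signals and movement. ACKR3, once called CXCR7, binds the same ligand but signals poorly or not at all through G proteins. It recruits arrestins, is taken into the cell and delivers the ligand for degradation, and so sets how much CXCL12 is left for CXCR4. In zebrafish, a receptor of this kind at the rear of the lateral line primordium removes ligand and makes the gradient that the tissue follows. In the mouse brain, both receptors are needed for the migration of cortical interneurons, and ACKR3 is found in neurons and in blood vessels. Teleosts carry duplicates of these genes. RefSeq lists ackr3a, cxcr4b, cxcl12a and cxcl12b for this species, and the files do not say which duplicate the identifiers ackr3, cxcr4 and cxcl12 stand for.

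Among these 4 genes, both receptors had fewer reads in every library titled bold than in any library titled shy, and both ligand genes overlapped between the groups. The scavenger ackr3 had 32.1, 29.7 and 34.7 CPM in titled bold 1, 2 and 3, against 51.1, 49.3 and 47.2 CPM in titled shy 1, 2 and 3. These rest on 672, 511 and 696 reads in titled bold and on 1160, 1115 and 997 reads in titled shy. The groups averaged 32.2 ± 2.51 CPM in titled bold and 49.2 ± 1.97 CPM in titled shy (SD, n = 3 each), and the fitted log2 fold of titled bold over titled shy was -0.61 ± 0.11 (SE). The groups of ackr3 did not overlap, as in 9.53% of all genes tested. Since ackr3 was picked from this contrast, nothing is read from that.

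**Figure D1:**
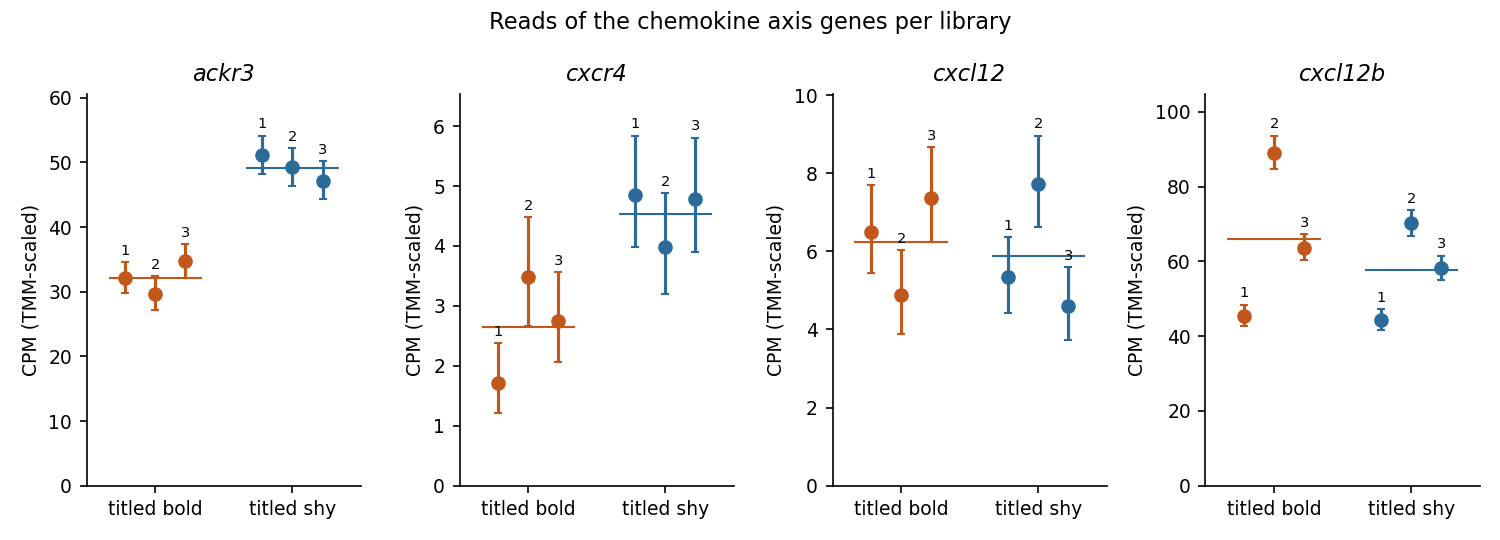
CPM (TMM-scaled) of ackr3, cxcr4, cxcl12 and cxcl12b in the 3 titled bold and 3 titled shy libraries, numbered by replicate; error bars are exact 95% Poisson intervals and cover counting error only, and lines are group means. For both receptors every titled bold point lies below every titled shy point, and for both ligand genes the groups overlap.

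The libraries of one group lay close together for ackr3. Its coefficient of variation was 7.80% in titled bold and 4.01% in titled shy, where counting error alone gives between 3.79% and 4.42% in titled bold and between 2.94% and 3.17% in titled shy. The pooled within-group SD on the log2 scale was 0.0893, against a median of 0.165 over the 6052 tested genes whose mean lay within 2-fold of that of ackr3. Of these genes, 13.3% had a smaller SD. Ordered by level, the libraries ran titled bold 2, 1 and 3, then titled shy 3, 2 and 1. The exact 95% Poisson intervals of neighbours in that order overlapped except at the step between the groups, where titled bold 3 reached up to 37.4 CPM and titled shy 3 down to 44.3 CPM. A ranking by p takes in the spread as well as the difference, so this small spread also belongs to what chose ackr3.

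The signalling receptor cxcr4 was covered far less deeply, with 36, 60 and 55 reads in titled bold and 110, 90 and 101 reads in titled shy. Scaled, it had 1.72, 3.48 and 2.74 CPM in titled bold 1, 2 and 3, against 4.85, 3.98 and 4.78 CPM in titled shy 1, 2 and 3. Every titled bold library lay below every titled shy one, and the counting intervals of the nearest pair overlapped, with titled bold 2 reaching up to 4.49 CPM, above the mark of 3.98 CPM for titled shy 2. The means were 2.65 ± 0.886 CPM in titled bold and 4.53 ± 0.484 CPM in titled shy (SD, n = 3 each), a log2 fold of -0.78 ± 0.32 (SE). This did not pass edgeR's quasi-likelihood test over all genes (unadjusted p = 0.0413, Benjamini-Hochberg adjusted p = 0.955). Of 19755 genes tested, 690 or 3.49% had an unadjusted p under 0.05 and 0, or 0%, were called after adjustment. Groups that do not overlap with titled bold lower were found in 5% of tested genes, so cxcr4 is 1 of 987 such genes. DESeq2 called 13 genes, or 0.0638%, and cxcr4 was not among them (DESeq2 adjusted p = 0.998). In titled bold the coefficient of variation of cxcr4 was 33.4%, where counting alone gives between 12.9% and 16.7%.

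The ligand gene cxcl12 showed no ordering by group. It had 6.50, 4.88 and 7.38 CPM in titled bold 1, 2 and 3, against 5.33, 7.73 and 4.59 CPM in titled shy 1, 2 and 3. The highest library was titled shy 2 and the lowest titled shy 3. Its means were 6.25 ± 1.27 CPM in titled bold and 5.89 ± 1.64 CPM in titled shy (SD, n = 3 each), a log2 fold of 0.09 ± 0.28 (edgeR adjusted p = 0.977). The sign of this fold turned without titled bold 3 and without titled shy 3, at -0.05 in both.

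The second ligand gene, cxcl12b, had the largest pooled within-group SD of the 4 genes, 0.415 on the log2 scale. It had 45.4, 89.1 and 63.7 CPM in titled bold 1, 2 and 3, against 44.4, 70.2 and 58.2 CPM in titled shy 1, 2 and 3. In both groups the library numbered 1 was the lowest and the library numbered 2 the highest, and the groups overlapped over most of their range. The means were 66.1 ± 21.9 CPM in titled bold and 57.6 ± 12.9 CPM in titled shy (SD, n = 3 each), a log2 fold of 0.20 ± 0.25 (edgeR adjusted p = 0.955). Leaving out titled bold 2 gave a fold of -0.08 and leaving out titled bold 1 one of 0.43. In the fits that lacked titled shy 2 or titled shy 1 it was 0.36 or 0.05. Its within-group coefficients of variation, 33.2% in titled bold and 22.4% in titled shy, compare with 2.51% to 3.24% from counting. CPM values are not divided by transcript length, and levels are therefore not compared between the 4 genes.

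A ratio of reads within one library is free of the scaling between libraries. Reads are not divided by transcript length, so a ratio is compared between libraries and does not give transcripts of receptor per transcript of ligand. There were 18.7, 8.52 and 12.7 reads of ackr3 per read of cxcr4 in titled bold 1, 2 and 3, against 10.5, 12.4 and 9.87 in titled shy 1, 2 and 3. The groups overlapped, and titled bold held both the highest and the lowest library. Per read of cxcl12, ackr3 had 4.94, 6.08 and 4.70 reads in titled bold, against 9.59, 6.37 and 10.3 in titled shy. Here the groups did not overlap, though titled bold 2 and titled shy 2 lay near each other. Per read of cxcl12b, ackr3 had 0.707, 0.333 and 0.545 reads in titled bold, against 1.15, 0.702 and 0.811 in titled shy. Titled bold 1 stood just above titled shy 2, so these groups overlapped. Per read of cxcl12b, cxcr4 had 0.0379, 0.0391 and 0.0430 reads in titled bold 1, 2 and 3, against 0.109, 0.0567 and 0.0821 in titled shy 1, 2 and 3, with no overlap. Counting error of cxcr4 alone is between 12.9% and 16.7% in titled bold. The spread of this ratio there, 0.040 ± 0.0027 (SD), is smaller than counting alone gives, and nothing is read from it. The ratios given here were not tested, since ackr3 was chosen from the contrast and an exact permutation test of 3 against 3 libraries cannot give a two-sided p below 0.1. How often ratios of other gene pairs separate the groups was not counted.

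**Figure D2:**
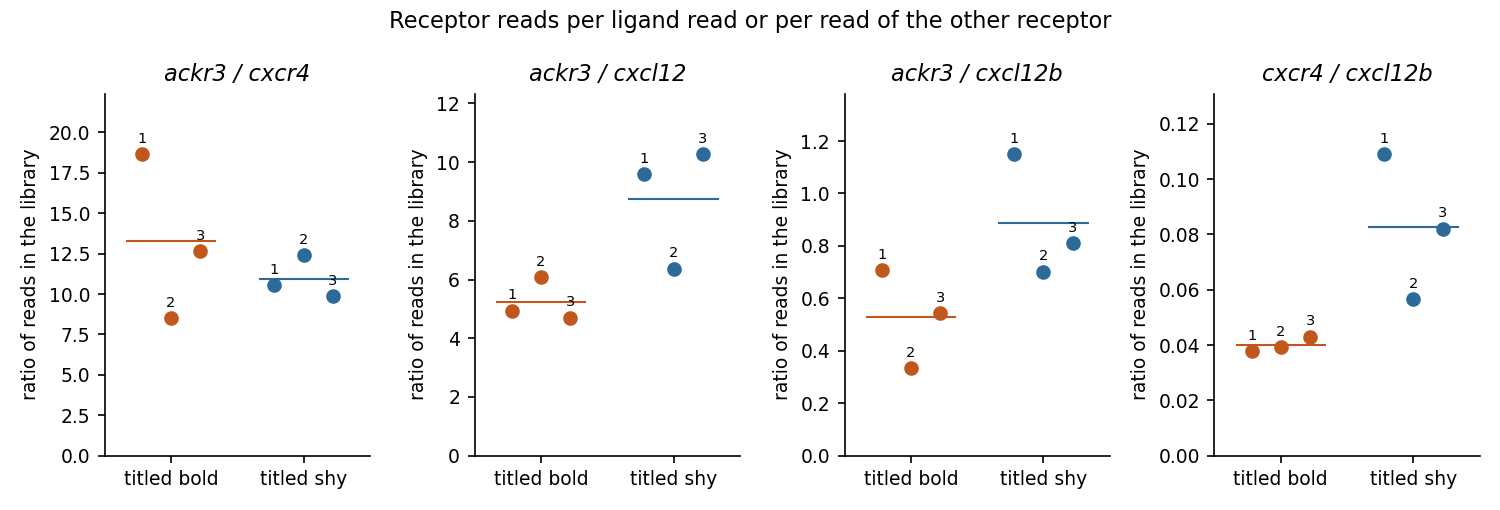
Ratio of reads between 2 axis genes within each library (vertical axis, no unit), for 3 titled bold and 3 titled shy libraries numbered by replicate, with group means as lines. The ratio of ackr3 to cxcr4 overlaps between the groups, with titled bold from 8.52 to 18.7, and the ratio of cxcr4 to cxcl12b does not, with titled bold from 0.0379 to 0.0430. Counting error is not drawn.

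Across the 6 libraries, log2 CPM of ackr3 correlated with that of cxcr4 at r = 0.739, with that of cxcl12 at -0.02 and with that of cxcl12b at -0.35. With each group centred on its own mean, which takes out the difference between the groups, these became -0.29 for cxcr4, 0.65 for cxcl12 and -0.51 for cxcl12b. The correlations are descriptions over 6 points that share libraries and scaling, and no p is given.

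In mammals ACKR3 also binds other ligands, among them CXCL11, adrenomedullin, MIF and opioid peptides. Among the 8 genes matched by symbol for such ligands, none was named cxcl11. Of these 8, 6 were tested and 0 were called after adjustment. Their median log2 fold was 0.15, beside -0.01 over all genes tested. An unadjusted p under 0.05 was found for 1, beside 3.49% of all genes tested. The 1 was pdyn, which encodes prodynorphin, the precursor of dynorphin peptides. It had 37.3, 32.3 and 18.5 CPM in titled bold 1, 2 and 3, against 43.4, 45.5 and 47.4 CPM in titled shy 1, 2 and 3. All titled bold libraries were lower, and titled bold 3 was the lowest. Its log2 fold was -0.63 ± 0.23 (SE; edgeR adjusted p = 0.955), and -0.38 without titled bold 3. Without 1 library the median of the list lay between 0.10, when titled bold 1 was left out, and 0.32, when titled bold 3 was.

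The other ligand genes did not order the groups in this way. The gene adm, for adrenomedullin, a vasodilator peptide, had 1.72, 3.37 and 3.49 CPM in titled bold, against 1.85, 1.55 and 1.56 CPM in titled shy. The library titled bold 1 lay among the titled shy libraries, and the log2 fold was 0.79 ± 0.37 (edgeR adjusted p = 0.955). The proenkephalin gene penk, with the highest CPM of this list, averaged 71.6 ± 1.54 CPM in titled bold and 72.4 ± 8.21 CPM in titled shy (SD, n = 3 each), and pnocb, a prepronociceptin gene, averaged 5.55 ± 1.08 CPM in titled bold and 4.40 ± 0.391 CPM in titled shy.

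Receptors that share ligands with ackr3 were mostly estimated lower in titled bold, and none passed the test. Of 11 tested, 9 had a log2 fold below 0 and 2 above, beside 10207 below 0 of all 19755 genes tested. The 11 had a median of -0.19, and 0 of them had an adjusted or an unadjusted edgeR p under 0.05. Leaving out titled bold 2 gave a median of -0.09, titled shy 1 one of -0.12, titled shy 2 one of -0.11 and titled shy 3 one of -0.30. The delta opioid receptor gene oprd1b averaged 19.3 ± 6.35 CPM in titled bold and 13.8 ± 2.47 CPM in titled shy, a log2 fold of 0.49 ± 0.25, and of 0.20 without titled bold 2. Its duplicate oprd1a, with 152 reads over all 6 libraries, had the opposite sign. The log2 fold of oprd1a was -0.79 ± 0.68, the lowest of the list, and its groups overlapped. The gene calcrl2, of the calcitonin receptor-like family to which adrenomedullin receptors belong, averaged 27.7 ± 5.36 CPM in titled bold and 34.9 ± 5.73 CPM in titled shy, a log2 fold of -0.33 ± 0.18, and of -0.18 without titled bold 2. For cd74, whose product binds MIF and chaperones MHC class II, the values were 369, 239 and 334 CPM in titled bold, against 360, 679 and 318 CPM in titled shy. One library, titled shy 2, sets its titled shy mean, and without it the log2 fold was -0.11 in place of -0.53.

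Arrestins and receptor kinases act on the ACKR3 protein after ligand binding, and their part in its uptake was not measured here. Of 5 tested, 3 were below 0 and 2 above, beside 10207 below 0 of all 19755 genes tested. The 5 had a median log2 fold of -0.22, and 0 had an unadjusted p under 0.05. The arrestin genes arrb2 and arrb1 averaged 36.9 ± 15.5 and 21.7 ± 3.48 CPM in titled bold, against 48.7 ± 8.64 and 25.2 ± 5.44 CPM in titled shy. For arrb2 the lowest library was titled bold 2, at 22.7 CPM, and the groups overlapped for both genes. The kinase genes grk3 and grk6 averaged 142 ± 17.8 and 8.18 ± 3.36 CPM in titled bold, against 137 ± 9.98 and 7.23 ± 1.98 CPM in titled shy. Without titled shy 2 the median of the list was 0.01, and leaving out titled bold 2, titled shy 1 or titled shy 3 gave -0.10, -0.11 or -0.12.

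Genes that carry the CXCR4 signal were spread on both sides of 0. Of 21 tested, 15 were above 0 and 6 below, beside 9548 above 0 of all 19755 genes tested. The 21 had a median log2 fold of 0.08, beside -0.01 over all genes tested, and 0 were called after adjustment. An unadjusted p under 0.05 was found for 1 of the 21, beside 3.49% of all genes tested. Leaving out titled bold 1 gave a median of 0.17, titled bold 2 one of -0.03 and titled shy 1 one of 0.04, as did scaling by library totals. Groups did not overlap in 4 of the 21, or 19.0%, beside 9.53% over all genes. Of these 4, dock2 and ptk2 were lower in titled bold and rgs4 and ptk2bb higher. The gene with an unadjusted p under 0.05 was dock2, which encodes an activator of the GTPase Rac in blood cells. It had 5.97, 6.21 and 4.24 CPM in titled bold 1, 2 and 3, against 8.51, 12.5 and 6.34 CPM in titled shy 1, 2 and 3, a log2 fold of -0.74 ± 0.30 (edgeR adjusted p = 0.955). Titled shy 2 was the highest, and titled bold 2 and titled shy 3 lay next to each other. Without titled shy 2 the log2 fold of dock2 was -0.44. The gene rac2, for a Rac GTPase of blood cells, followed the same library, at 20.0, 18.6 and 19.0 CPM in titled bold and 22.6, 36.4 and 19.8 CPM in titled shy. The focal adhesion kinase gene ptk2 averaged 32.9 ± 0.904 CPM in titled bold and 38.5 ± 3.46 CPM in titled shy with no overlap. The gene rgs4, for a regulator that shortens G protein signals, averaged 5.29 ± 0.569 CPM in titled bold and 3.89 ± 0.384 CPM in titled shy, a log2 fold of 0.45 ± 0.24 and the highest of the list. The gene ptk2bb, for a kinase related to focal adhesion kinase, averaged 15.2 ± 1.77 CPM in titled bold and 13.0 ± 0.331 CPM in titled shy, a log2 fold of 0.23 ± 0.16. The G protein subunit gene gnb1b averaged 457 ± 68.2 CPM in titled bold and 445 ± 5.09 CPM in titled shy.

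Beside these values, the summed markers of microglia and macrophages, all 9 matched genes with reads, lay between 76.2 and 110 CPM in titled bold and between 80.6 and 163 CPM in titled shy, with titled shy 2 the highest. Of these 9, 8 had a log2 fold below 0, beside 10207 of all 19755 genes tested, and the median was -0.25. Beside 3.49% of all genes tested, 1 of the 9 had an unadjusted p under 0.05. This was spi1, for a transcription factor of myeloid cells, at 2.42 ± 0.364 CPM in titled bold and 4.90 ± 2.67 CPM in titled shy, with groups that overlapped and a log2 fold of -1.02 ± 0.42 (edgeR adjusted p = 0.955). The duplicate spi1a, with 1092 reads over all 6 libraries against 470 for spi1, had a log2 fold of only -0.11 ± 0.27. The summed markers of lymphocytes and granulocytes, all 9 with reads, lay between 16.3 and 22.8 CPM in titled bold and between 15.9 and 33.1 CPM in titled shy, again with titled shy 2 the highest. Their part in the values of cd74, dock2 and rac2 was not tested. For cxcr4, which blood cells also express, titled shy 2 was the lowest of the titled shy libraries, and its log2 fold was -0.86 without that library. The part of blood cells in the values of cxcr4 was not tested either.

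**Figure D3:**
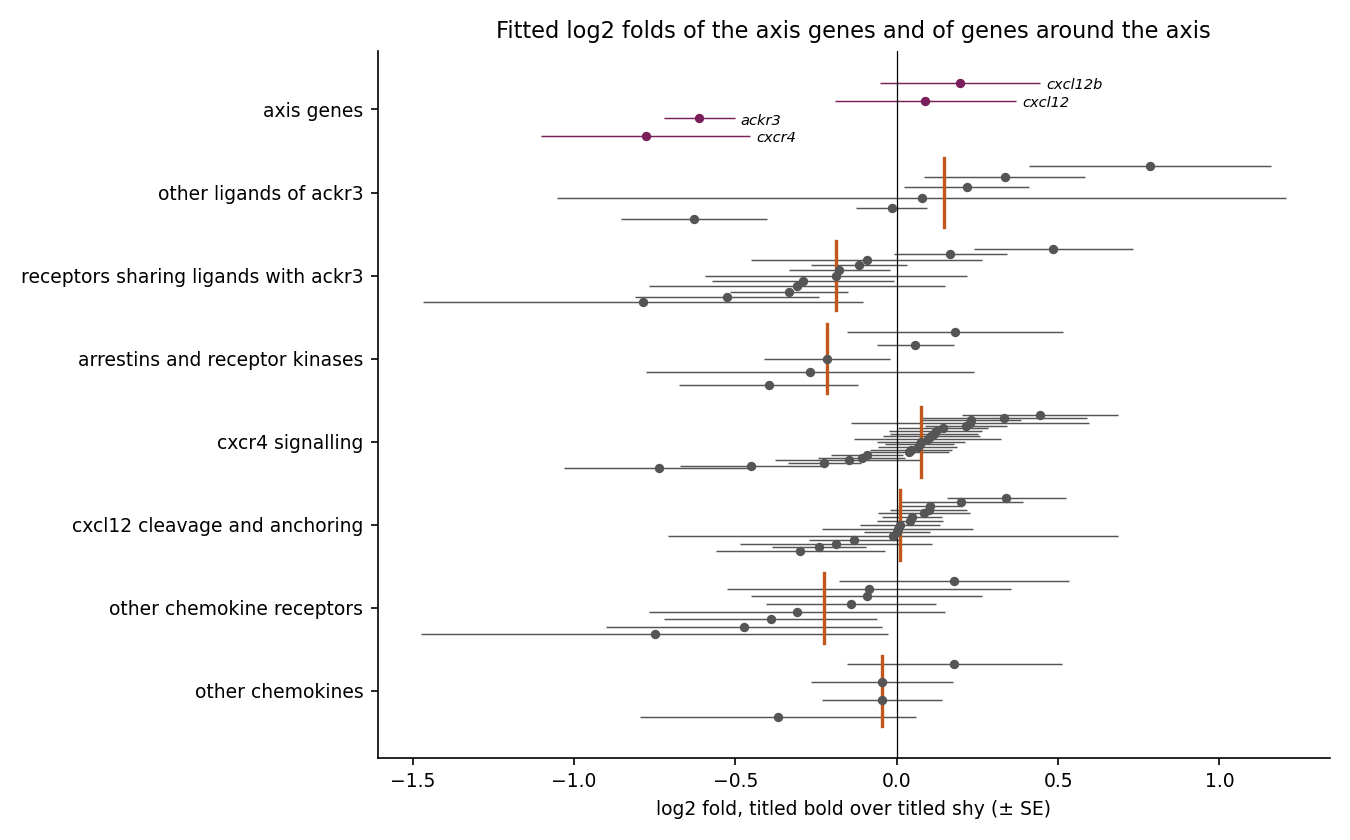
Fitted log2 folds of titled bold over titled shy (horizontal axis, bars ± SE) for the 4 axis genes and for each tested member of 7 lists by role; vertical strokes are list medians. Both receptors of the axis lie left of 0, both ligand genes have SE bars that reach across 0 and every list holds members on both sides.

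Genes that cut or anchor CXCL12 centred on 0. Proteases shorten the chemokine, and heparan sulfate on syndecans and glypicans holds it at cell surfaces. Of 15 tested, 10 were above 0 and 5 below, beside 9548 above 0 of all 19755 genes tested. The 15 had a median log2 fold of 0.01, and 0 had an unadjusted p under 0.05. Without 1 library the median lay between 0.01 and 0.11, the higher value without titled shy 2. Groups did not overlap in 1 of the 15, or 6.7%, beside 9.53% of all genes tested. This was the syndecan gene sdc4, at 14.8 ± 1.24 CPM in titled bold and 17.4 ± 1.06 CPM in titled shy. The glypican gene gpc1a averaged 86.4 ± 21.9 CPM in titled bold and 68.3 ± 9.77 CPM in titled shy. The syndecan gene sdc2 averaged 13.7 ± 4.39 CPM in titled bold and 16.9 ± 4.33 CPM in titled shy. The heparan sulfate sulfotransferase gene ndst1 had 141 ± 8.68 CPM in titled bold and 140 ± 10.5 CPM in titled shy (SD, n = 3 each).

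Few chemokines and receptors outside the axis were matched by symbol, and loci without a symbol could not be matched. The match counts thus do not measure how much such genes are expressed. Of 13 receptor genes matched, 12 had reads and 8 were tested. Of the 8, 7 had a log2 fold below 0 and 1 above, beside 10207 below 0 of all 19755 genes tested. The median of the 8 was -0.23. Among the 8, cxcr3 and cxcr3.2, both below 0, were also counted with the receptors that share ligands with ackr3. None of the 8 had an adjusted or an unadjusted edgeR p under 0.05, and the median was 0.11 without titled shy 2 and -0.42 without titled shy 3. Here ccr12a, a chemokine receptor gene named in fish, averaged 8.81 ± 1.54 CPM in titled bold and 9.73 ± 2.96 CPM in titled shy. The lymphocyte homing receptor genes ccr9a and ccr7 averaged 2.17 ± 0.501 and 0.381 ± 0.302 CPM in titled bold, against 3.02 ± 1.54 and 0.641 ± 0.333 CPM in titled shy. The chemerin receptor gene cmklr1 averaged 3.04 ± 0.654 CPM in titled bold and 3.98 ± 1.23 CPM in titled shy. Of 7 chemokine genes matched, 3 had no read and 4 were tested, with a median log2 fold of -0.05 and 0 at an unadjusted p under 0.05. Without 1 library this median lay between -0.19, when titled shy 1 was left out, and 0.09, when titled shy 2 was. The gene cxcl14, for a chemokine abundant in healthy tissue, had 207, 262 and 261 CPM in titled bold, against 185, 260 and 308 CPM in titled shy. The B cell chemokine gene cxcl13 averaged 3.22 ± 1.43 CPM in titled bold and 4.16 ± 1.43 CPM in titled shy, and ccl25b, for a thymus chemokine, 17.3 ± 9.57 CPM in titled bold and 15.2 ± 0.415 CPM in titled shy.

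Since ACKR3 is known from endothelium and other brain cells of mammals, markers of the cell types that the tissue could hold are given beside it. In bulk RNA, fewer cells of a type and less RNA per cell cannot be told apart. All 16 matched endothelial markers had reads, and their sum lay between 453 and 520 CPM in titled bold and between 480 and 541 CPM in titled shy. Of these 16, 11 had a log2 fold below 0, the median was -0.11, and 2 had an unadjusted p under 0.05, the tight junction gene cldn5 and the transcription factor gene sox7, with 0 called after adjustment. Over all 19755 genes tested, 10207 had a log2 fold below 0 and 3.49% an unadjusted p under 0.05. Groups did not overlap in 3 of the 16, cldn5, sox7 and flt1, all lower in titled bold, beside 9.53% of all genes tested. The gene cldn5 averaged 80.8 ± 1.70 CPM in titled bold and 95.5 ± 6.91 CPM in titled shy (log2 fold -0.24 ± 0.10), and sox7 11.4 ± 2.10 CPM in titled bold and 15.2 ± 0.442 CPM in titled shy (log2 fold -0.42 ± 0.18). Endothelial markers with a log2 fold above 0 included esamb (0.43 ± 0.36), egfl7 (0.20 ± 0.17) and sox17 (0.10 ± 0.14), whose groups overlapped.

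The sums of the other marker lists also overlapped between the groups, while some single members did not. Counts below stand beside 3.49% of all genes tested at an unadjusted p under 0.05 and 9.53% whose groups did not overlap. Of all 19755 genes tested, 10207 had a log2 fold below 0. Radial glia and astrocyte markers, 10 of 10 with reads, summed to between 4527 and 5874 CPM in titled bold and between 4719 and 6401 CPM in titled shy. Of 9 tested, 7 had a log2 fold below 0, the median was -0.17, and 2 had an unadjusted p under 0.05, both with every titled bold library below every titled shy one. These were sox2 and aqp4. The neural stem cell transcription factor gene sox2 averaged 47.0 ± 4.38 CPM in titled bold and 58.6 ± 3.52 CPM in titled shy (log2 fold -0.32 ± 0.11). The water channel gene aqp4 averaged 0.518 ± 0.133 CPM in titled bold and 1.26 ± 0.297 CPM in titled shy (log2 fold -1.27 ± 0.45). Its values rest on 113 reads over all 6 libraries. The other of the 3 members with no overlap, fabp7a, was higher in titled bold. It averaged 328 ± 19.8 CPM in titled bold and 251 ± 67.7 CPM in titled shy, a log2 fold of 0.39 ± 0.19. Mural cell markers, 7 of 7 with reads, summed to between 283 and 378 CPM in titled bold and between 284 and 434 CPM in titled shy. Of these 7, 4 were below 0, the median was -0.03, and 1 had an unadjusted p under 0.05, the Notch receptor gene notch3. It averaged 12.3 ± 6.80 CPM in titled bold and 24.5 ± 5.16 CPM in titled shy with no overlap, a log2 fold of -0.99 ± 0.39. Meningeal and fibroblast markers, 13 of 13 with reads, summed to between 358 and 518 CPM in titled bold and between 279 and 517 CPM in titled shy. Here 3 of 13 were below 0, the median was 0.27, and the 1 gene with an unadjusted p under 0.05 was the collagen gene col1a1a, which overlapped between the groups and had a log2 fold of 0.74 ± 0.27. None of the marker genes named here was called after adjustment, and their part in the values of ackr3 was not tested. Oligodendrocyte precursors, 6 of 6, gave 68.6 to 125 CPM in titled bold and 83.9 to 96.2 CPM in titled shy. Of these 6, 2 were below 0, and the median was 0.03. Myelinating oligodendrocytes, 7 of 7, gave 2127 to 4046 CPM in titled bold and 2152 to 2547 CPM in titled shy. Of these 7, 4 were below 0, with a median of -0.05. Neuronal markers, 12 of 12, gave 8570 to 11680 CPM in titled bold and 8094 to 8628 CPM in titled shy. Of these 12, 3 had a log2 fold below 0, and the median was 0.23. Erythrocyte markers, 7 of 7, gave 16.1 to 25.8 CPM in titled bold and 18.3 to 20.2 CPM in titled shy. Groups did not overlap for stmn2 and stmn2a of the neurons and olig1 of the precursors, each higher in titled bold. In the erythrocyte list gata1b, with 67 reads over all 6 libraries, did not overlap and was lower in titled bold. Of the 5 erythrocyte markers tested, 2 had a log2 fold below 0, and the median was 0.26. Titled bold 2 was the highest library for neurons, for myelinating oligodendrocytes and for their precursors. That library also had the most cxcl12b and the least ackr3, and without it the log2 fold of ackr3 was -0.56.

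**Figure D4:**
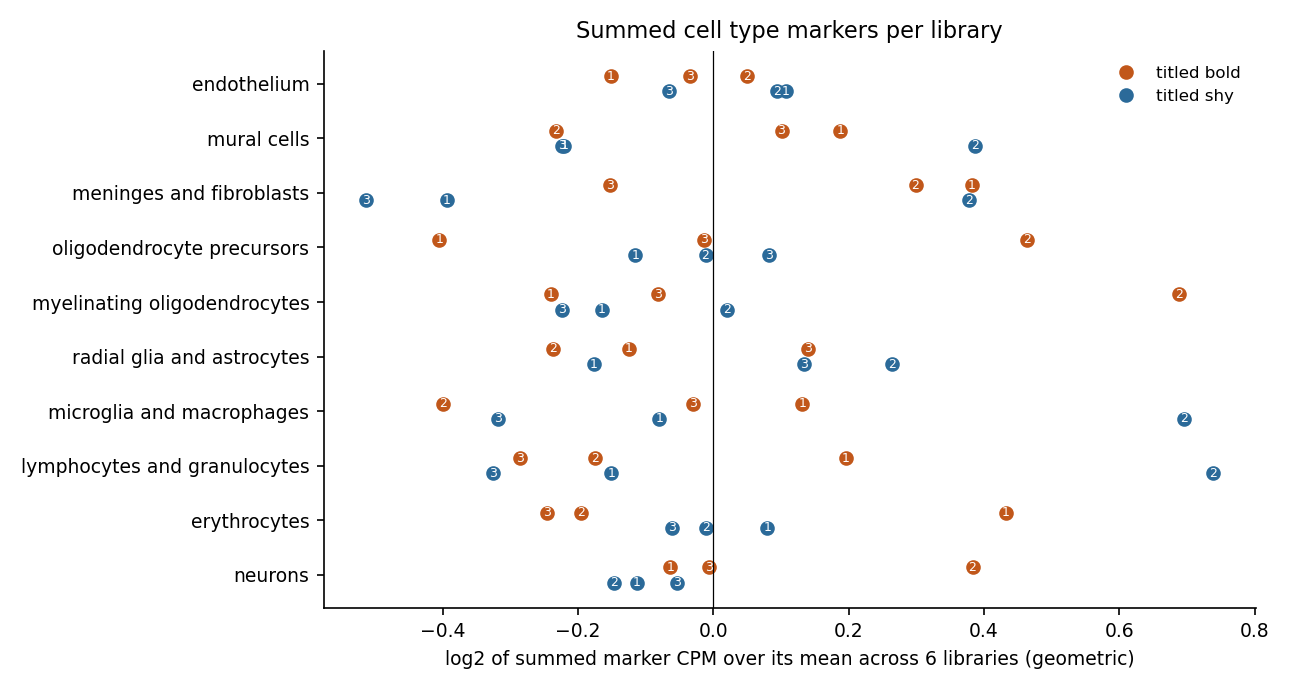
Summed CPM of each cell type marker list per library, as log2 over the geometric mean of the 6 libraries (horizontal axis), with points numbered by replicate and coloured by group. In every list the groups overlap, titled shy 2 is the highest for microglia and for lymphocytes, and titled bold 2 for neurons and myelinating oligodendrocytes.

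The genes most like ackr3 were sought among 9211 named genes with a mean of at least 10 CPM, by Pearson's r of log2 CPM over 6 libraries. The closest was rsrc2, which encodes an arginine- and serine-rich protein, at r = 0.981, with 99.4, 94.4 and 98.1 CPM in titled bold 1, 2 and 3, against 110, 109 and 110 CPM in titled shy 1, 2 and 3. It keeps the order of the groups with a far smaller difference, at a log2 fold of -0.17 ± 0.09. Then came acin1, for a splicing-associated nuclear protein, at 0.978, ric8b, for a chaperone of G protein alpha subunits, at 0.963, scn2b, for a sodium channel beta subunit, at 0.963, and sltm, for an RNA-binding nuclear protein, at 0.961. Of these, scn2b had a log2 fold near that of ackr3, -0.63 ± 0.17, and averaged 12.1 ± 2.39 CPM in titled bold and 18.7 ± 0.489 CPM in titled shy. Since ackr3 was chosen from this contrast, genes that follow it over all 6 libraries tend to order the groups alike. Nothing is therefore read from the group order of these 5 genes. With the group means removed, the closest were tent5c, zbtb21, arid2, kmt5c and oplah, with r between 0.992 and 0.998, and all 5 overlapped between the groups. Neither set holds under change of a single library. Of the first 5 genes between 0 and 3, and of the second 5 between 0 and 2, remained among the closest 5 when 1 library was left out.

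The fold of ackr3 moved little with the processing. Over 15 other settings, 6 of which leave out a library each, its log2 fold lay between -0.67 and -0.56. That of cxcr4 lay between -1.02 without titled bold 2 and -0.52 without titled bold 1, on the same side of 0 in each, and was not called in any of the 15. Such stability of the sign is no added support, since groups that do not overlap keep their order when a library is removed.

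**Figure D5:**
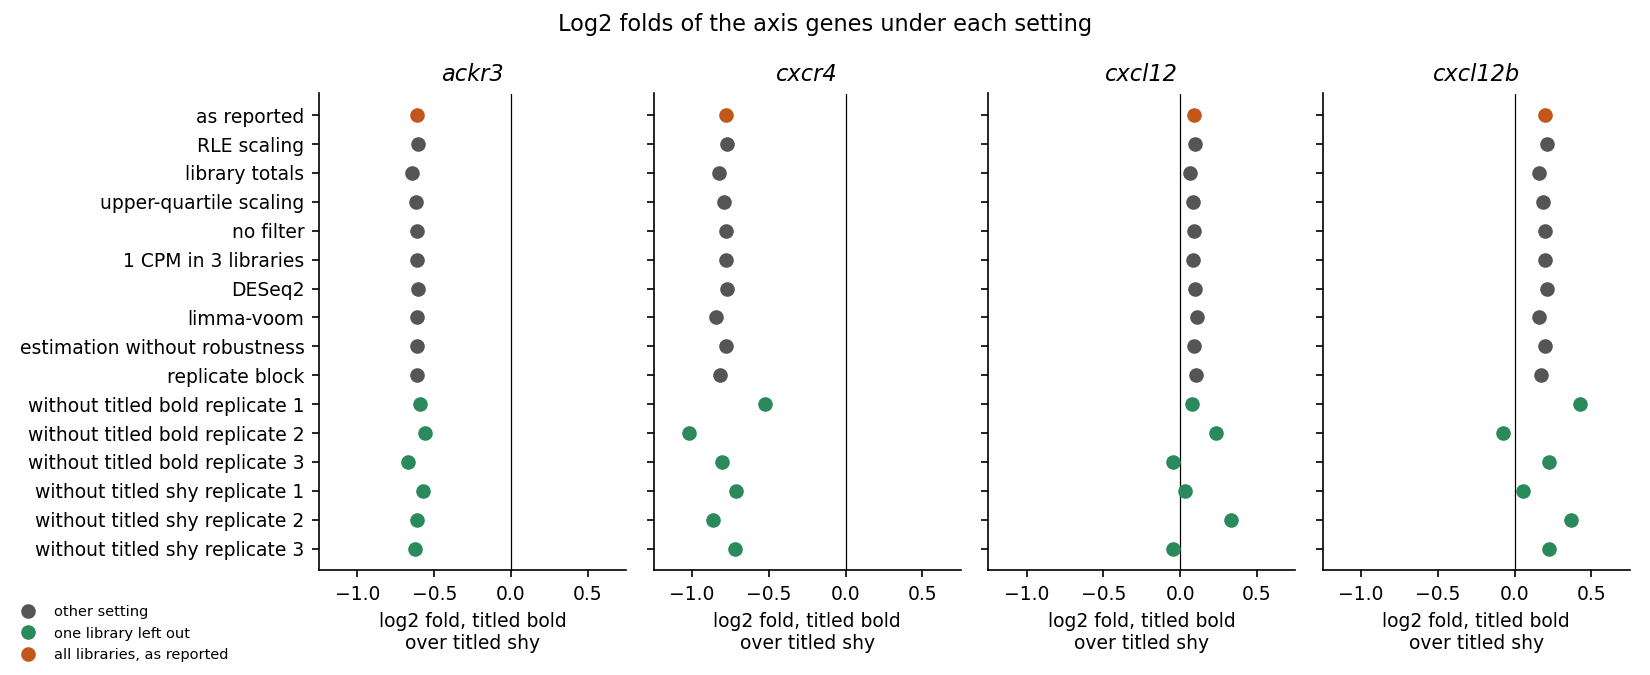
Log2 fold of titled bold over titled shy (horizontal axis) for each axis gene, as reported, under 9 other settings and with each of the 6 libraries left out. The points of ackr3 lie between -0.67 and -0.56, those of cxcr4 between -1.02 and -0.52, and those of cxcl12 and cxcl12b cross 0 where a library is left out.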

How the data were processed

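Read counts of 6 libraries, labelled as hindbrain, were analysed, grouped by title. The authors deposited raw counts for 24395 genes and used Trimmomatic 0.30, TopHat2 2.0.11 and HTSeq 0.11.1, per the submitters' processing notes. Per the labels' protocols the kit was stranded and read pairs were 100 bp long. Genome build, annotation, strand setting and the handling of shared reads are not given in the sources used, so duplicated genes carry that uncertainty. No pair of a group agreed within sampling noise (chi-square per gene at least 17.1).

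Genes passing filterByExpr, 19755, went through TMM scaling and edgeR's two-sided quasi-likelihood test (robust glmQLFit), with Benjamini-Hochberg adjustment over all of them and calls at an adjusted p under 0.05. SEs derive from the F statistic. CPM uses TMM-scaled totals, and log2 CPM a prior count of 2. Poisson intervals are exact, at 95%, for counting error only. Lists were matched by symbol with or without a duplicate suffix, after 5666 of 14730 LOC identifiers took a symbol from RefSeq ASM2471397v2. Named were, per list, the 3 genes of smallest p and that of highest CPM, and the 5 most like ackr3. The genes oprd1a, rgs4 and ptk2bb and the marker genes were named after their values were seen. Members and lists were chosen with earlier results of these data known. The fit was tested on simulated data with 200 of 19755 genes changed. It called 154 genes, 7 of them falsely, and recovered 47% of 2-fold and 100% of 4-fold changes. Smaller changes can thus be missed. Alternatives were RLE, upper-quartile and total scaling, 2 other filters, non-robust estimation, DESeq2, limma-voom, each library left out and a replicate block. Software was edgeR 4.0.16, limma 3.58.1 and DESeq2 1.42.0 under R 4.3.3, and matplotlib 3.10.9 under Python 3.11.15.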

Additional observations from a re-analysis of the deposited data

How the results depend on the processing

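With edgeR, 0 genes and 0 axis list members were called in all 6 fits that left out a library, and under each other edgeR setting and limma-voom. DESeq2 called 13 genes, or 0.0638% of those it adjusted, and 1 axis list member, which was ackr3 itself, chosen from this contrast. At an unadjusted edgeR p under 0.05 there were 690 genes, 2393 without titled bold 1 and between 536 and 622 without any other library. Leaving out 1 library gave log2 folds from -0.67 to -0.56 for ackr3, -1.02 to -0.52 for cxcr4, -0.048 to 0.33 for cxcl12 and -0.078 to 0.43 for cxcl12b. Signs turned, with the cause not tested, for cxcl12 and cxcl12b as given above and for some list genes. Not all of these had folds near 0 with all libraries: ccr9a had -0.47, grk6 0.18 and ccl25b 0.18. Left-out ranges were -0.058 to 0.10 for penk, -0.16 to 0.42 for grk6, -0.027 to 0.17 for grk3, -0.058 to 0.17 for gnb1b, -0.045 to 0.080 for ndst1, -0.73 to 0.0095 for ccr9a, -0.33 to 0.10 for ccr12a, -0.36 to 0.46 for ccl25b and -0.22 to 0.14 for cxcl14. For ndst1 the fold was also -0.031 with library totals, -0.0075 with upper-quartile scaling and -0.0012 with the filter of 1 CPM in 3 libraries. The other 17 of 26 named list genes kept their sign, and ccr7 had no value under that filter.

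Of the 5 genes most like ackr3, 2 remained with library totals and between 0 and 3 without 1 library. With group means removed, 2 remained with library totals and between 0 and 2 without 1 library.

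The titles number replicates 1 to 3 in both groups. Deviations of same-numbered libraries correlated at 0.316, 0.136 and 0.0798. Titled shy 3 correlated slightly more with titled bold 2, at 0.0843, while every other library was highest with its own number. With the replicate block edgeR called 0 genes and 0 axis list members, 1160 genes had an unadjusted p under 0.05, and log2 folds were -0.61 for ackr3, -0.82 for cxcr4, 0.11 for cxcl12 and 0.17 for cxcl12b. The SE of the cxcl12b fold was 0.11 with the block and 0.25 without it, while those of ackr3, cxcr4 and cxcl12 did not fall. The 36 to 110 reads of cxcr4 limit its precision per library, beside a spread in titled bold larger than counting alone gives.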
